A study of Mus musculus with 12 samples.

Results

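The genes described here are 10 transcriptional outputs of the receptor tyrosine kinase to ERK pathway: the immediate early genes *Fos*, *Fosl1*, *Jun*, *Junb* and *Egr1*, the feedback inhibitors *Dusp6*, *Spry2* and *Spry4*, and the ETS factors *Etv4* and *Etv5*. They were chosen by name, and each matched 1 Ensembl gene ID among the 54532 genes counted per sample. All 10 passed the filter on low counts in every comparison. RNAseq had been performed on brainstem progenitors from C57BL/6 mice of the genotype Nestin TVA; p53 floxed, taken at postnatal day 3 to 5 and grown as neurospheres in serum-free medium with EGF and FGF2. In these mice the nestin promoter drives TVA, the receptor through which RCAS viruses enter a cell, so the viruses reach nestin-expressing cells. The 12 samples form 4 groups of 3, infected with *ACVR1* WT, with *ACVR1* R206H, with *ACVR1* WT and H3.1K27M, or with *ACVR1* R206H and H3.1K27M. ACVR1 is a BMP type I receptor, R206H is a mutation that makes it overactive, and H3.1K27M is a mutant histone that impairs trimethylation of lysine on histone H3. All 4 groups share the p53 floxed genotype and an *ACVR1* vector, which the labels call human. No group received an empty vector. The groups with H3.1K27M received an additional virus, and its effect cannot be told apart from that of H3.1K27M. The labels name no Cre virus and do not say whether the replicates of a group are separate litters or cultures. The study's methods describe its neurosphere assays as made on lines from independent litters without naming the RNAseq, so p values measure the spread between these samples, which may be technical.

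EGF and FGF bind receptor tyrosine kinases, which act through RAS, RAF and MEK to phosphorylate ERK. Active ERK induces immediate early genes such as *Fos* and *Egr1* within minutes and without new protein synthesis. The genes listed here under that name encode AP-1 subunits (the FOS and JUN families) and the zinc finger factor EGR1. *Fosl1* is listed with them as a member of the FOS family. With sustained signal ERK also induces its own inhibitors: DUSP6 dephosphorylates ERK in the cytoplasm, and the Sprouty proteins SPRY2 and SPRY4 act between the receptor and RAF. ETV4 and ETV5 are ETS transcription factors of the PEA3 family whose RNA is widely read as an output of FGF receptor signaling in the nervous system. RNA levels of these genes are outputs, and phosphorylated ERK was not measured in these files.

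Levels are given as CPM, each count scaled to the library total, after normalization over the 12 libraries, which held 19315020 to 26456257 counts each. As a check of the labels, *Id1*, a target of BMP signaling, was at 11.9 to 21.9 CPM with *ACVR1* WT and 12.4 to 13.8 CPM with *ACVR1* WT and H3.1K27M, against 32.3 to 40.3 CPM with *ACVR1* R206H and 96.3 to 118 CPM with *ACVR1* R206H and H3.1K27M. *Id2* and *Id3* were likewise higher in each *ACVR1* R206H library than in any library of the corresponding *ACVR1* WT group, while *Id4* overlapped between the groups without H3.1K27M (14.7 to 89.6 and 36.3 to 54.0 CPM). Reads assigned to *Acvr1*, which may include reads of the vector, were at 46.4 to 53.5 CPM with *ACVR1* WT, 81.9 to 114 CPM with *ACVR1* R206H, 162 to 364 CPM with *ACVR1* WT and H3.1K27M and 561 to 1057 CPM with *ACVR1* R206H and H3.1K27M. The amount of *Acvr1* reads therefore differed along every comparison made here, and its part in the results was not tested. The progenitor genes *Nes*, *Sox2* and *Olig2* were present in every library, at 73.0 to 407, 210 to 377 and 471 to 933 CPM. The summed markers of microglia (6 genes), endothelium (5), neurons (5) and pericytes (5) did not exceed 10.4, 15.5, 26.1 and 29.7 CPM in any library, while those of mature oligodendrocytes (5) lay between 117 and 351 CPM. Some of these low marker sums moved with the groups. The microglia sum was 2.80 to 10.4 CPM with *ACVR1* WT and 3.50 to 5.42 CPM with *ACVR1* R206H, against 1.27 to 1.70 and 2.02 to 2.95 CPM in the same groups with H3.1K27M. Its genes did not move together. With H3.1K27M *Csf1r* fell to between 0 and 0.143 CPM from between 0.901 and 5.42 CPM. *P2ry12* instead rose with H3.1K27M in *ACVR1* R206H cells, from a mean of 1.06 to 2.12 CPM (log2 fold change 1.01, adjusted p = 0.005 in edgeR's test). It was also higher with *ACVR1* R206H among the groups with H3.1K27M (0.99), and it made up most of the sum with both mutations (1.58 to 2.50 CPM). The pericyte sum was 8.11 to 11.7 CPM with *ACVR1* WT, 12.2 to 14.5 CPM with *ACVR1* R206H, 13.5 to 16.0 CPM with *ACVR1* WT and H3.1K27M and 23.9 to 29.7 CPM with *ACVR1* R206H and H3.1K27M, with *Rgs5* (log2 fold change 1.10), *Col1a1* (0.55) and *Col1a2* (0.50) called between the last 2 groups. The endothelial sum was 5.08 to 15.5 CPM with *ACVR1* WT and 8.64 to 12.8 CPM with *ACVR1* R206H. In the same groups with H3.1K27M it was 4.25 to 4.75 and 5.88 to 8.11 CPM. Between the 2 *ACVR1* R206H groups *Flt1* was called lower with H3.1K27M (-1.44) and *Kdr* higher (1.28). The part of these markers in the changes of the 10 genes was not tested.

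The 3 *ACVR1* WT libraries differed from each other far more than the libraries of the other groups, and the ERK feedback and ETS genes differed by more than the median gene. *Dusp6* was at 104 CPM in replicate 1, 25.2 CPM in replicate 2 and 9.29 CPM in replicate 3, a ratio of 11.2 between the highest and the lowest. The same ratio was 7.004 for *Spry4*, 5.29 for *Etv5*, 3.82 for *Etv4* and 1.78 for *Spry2*, against a median of 1.33 over all genes in this group. Replicate 1 was the highest for all 5 genes and replicate 3 the lowest. A ratio above that median was not particular to them: it was 1.96 for *Egr1*, 1.85 for *Fos* and 1.65 for *Fosl1*. *Fos* ran the other way, at 84.7, 123 and 156 CPM in replicates 1, 2 and 3. In the other 3 groups none of the 10 genes had a ratio above 1.62, the value of *Egr1* with *ACVR1* R206H and H3.1K27M, and the medians over all genes were 1.11 to 1.13. Replicate 1 also stood furthest from the others over all genes, with a chi-square per degree of freedom of 75.3 and 129 against replicates 2 and 3, which differed from each other by 17.0. Pairs in the other groups lay between 2.91 and 7.07.

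The astrocyte markers moved in the opposite direction across the same libraries. The sum of *Gfap*, *Aqp4*, *Aldh1l1* and *Gjb6* was 1644 CPM in *ACVR1* WT replicate 1, 5633 CPM in replicate 2 and 9239 CPM in replicate 3. It was 3421 to 4287 CPM with *ACVR1* R206H, 1631 to 1686 CPM with *ACVR1* WT and H3.1K27M and 2367 to 2464 CPM with *ACVR1* R206H and H3.1K27M. None of the 4 markers was at 0 in any library. The 5 mature oligodendrocyte markers moved the same way as the astrocyte markers within the *ACVR1* WT group, with sums of 117, 250.3 and 351 CPM in replicates 1, 2 and 3, against 143 to 219 CPM in the other groups. The 8 progenitor markers were mixed: in the same replicates *Nes* was at 407, 132 and 73.0 CPM, while *Prom1* was at 10.1, 25.4 and 54.3 CPM and *Sox9* at 182, 280.4 and 307 CPM, and the summed level of the list was 7391, 7052 and 6244 CPM. The part of this shift in the results below was not tested, and in bulk RNA fewer cells of a type and less RNA per cell cannot be told apart. The results of the 10 genes that used *ACVR1* WT are therefore given with and without replicate 1.

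**Figure D1:**
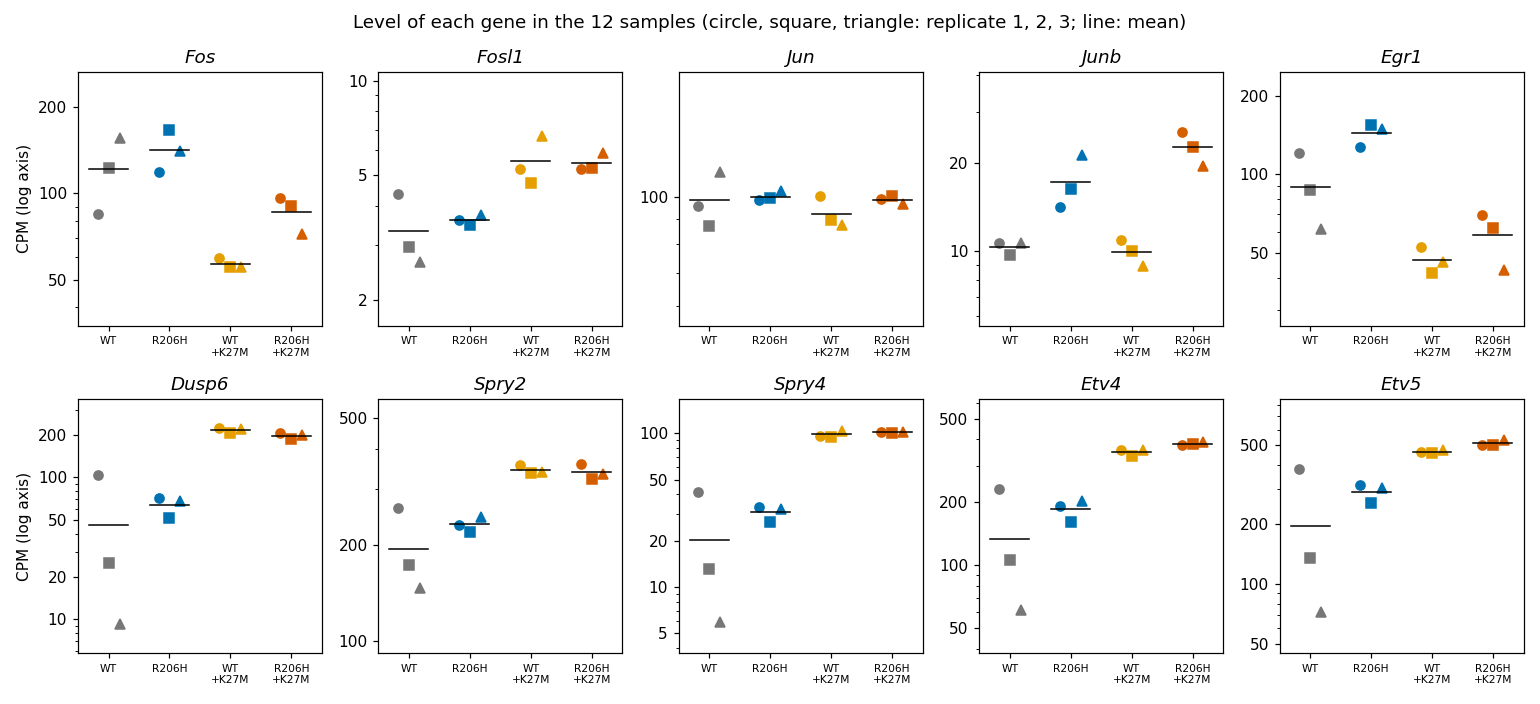
CPM of the 10 genes on a log axis in each of the 12 libraries, with the group on the x axis, the replicate shown by the marker shape and the group mean by a line. *Dusp6*, *Spry4*, *Etv4* and *Etv5* spread widely across the 3 *ACVR1* WT libraries (for *Dusp6* from 9.29 to 104 CPM) and are tight and high in both groups with H3.1K27M, while *Fos* and *Egr1* are lowest there and *Junb* is highest in both *ACVR1* R206H groups.

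In mm10, *Fos* lies at chr12:85473890-85477273, *Fosl1* at chr19:5447547-5455946, *Jun* at chr4:95049034-95052222, *Junb* at chr8:84974484-84978718, *Dusp6* at chr10:99263231-99267489, *Spry2* at chr14:105891947-105896819, *Etv4* at chr11:101769742-101785371 and *Etv5* at chr16:22381309-22439719. To compare genes with each other, CPM were divided by the exon length of each gene in kb. With *ACVR1* R206H and H3.1K27M, *Spry2* was the most abundant of the 10 at 162 ± 8.71 CPM per kb (SD, n = 3), followed by *Etv5* at 125 ± 4.35 and *Etv4* at 123 ± 2.40 CPM per kb, which did not differ beyond their spread. *Dusp6* came next at 63.0 ± 3.04 CPM per kb. *Fos* at 36.8 ± 5.45 and *Jun* at 30.9 ± 0.581 CPM per kb again lay within their spread of each other, above *Spry4* at 21.3 ± 0.243 CPM per kb. *Egr1* at 13.01 ± 3.08 and *Junb* at 9.84 ± 1.33 CPM per kb were not separated, and *Fosl1* was the least abundant at 2.69 ± 0.188 CPM per kb. With *ACVR1* R206H alone the order changed in its middle: *Spry2* (111 ± 5.97 CPM per kb) and *Etv5* (71.2 ± 7.70 CPM per kb) still led, *Fos* (60.4 ± 9.98 CPM per kb) stood beside *Etv4* (59.7 ± 6.97 CPM per kb), and *Egr1* (32.0 ± 3.23 CPM per kb) stood above *Dusp6* (20.4 ± 3.39 CPM per kb). Exons of *Fosl1*, *Jun* and *Junb* overlap *Ccdc85b*, *Junos* and *Prdx2* on the opposite strand. The counting ignored strand and left out reads that fit both genes, so the values per kb of these 3 genes miss the shared stretches.

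*Fos* and *Junb*, the immediate early genes most affected by *ACVR1* R206H with H3.1K27M, and *Dusp6* and *Etv5*, a feedback and an ETS gene that rose with H3.1K27M, were chosen to show the 250 bases before the RefSeq transcription start (GRCm38.p6, 5′ to 3′ on the strand of the gene). RefSeq promoters were matched for 6 of the 10 genes, the others being *Fosl1*, *Egr1*, *Spry4* and *Etv4*. Capitals mark the letters TGACG (the core of the cAMP response element), AGGAAG (an ETS core), GGGCGG (the GC box) and TATAAA (the TATA box), searched on both strands, so that a match on the other strand is printed as its reverse complement. The *Fos* promoter lies at chr12:85473640-85473889 on the plus strand, *Junb* at chr8:84978749-84978998 on the minus strand, *Dusp6* at chr10:99262981-99263230 on the plus strand, and *Etv5* at chr16:22439571-22439820 on the minus strand, the latter before the first of its 2 listed starts.
Fos: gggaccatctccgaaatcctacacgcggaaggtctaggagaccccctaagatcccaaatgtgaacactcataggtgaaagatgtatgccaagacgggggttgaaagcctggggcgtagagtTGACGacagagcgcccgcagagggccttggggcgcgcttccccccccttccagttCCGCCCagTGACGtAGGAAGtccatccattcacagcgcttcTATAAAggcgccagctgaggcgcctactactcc
Junb: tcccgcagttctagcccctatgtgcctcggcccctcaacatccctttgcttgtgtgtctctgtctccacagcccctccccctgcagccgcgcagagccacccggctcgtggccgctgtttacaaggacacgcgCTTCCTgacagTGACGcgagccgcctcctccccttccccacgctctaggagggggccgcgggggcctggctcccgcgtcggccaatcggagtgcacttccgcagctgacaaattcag
Dusp6: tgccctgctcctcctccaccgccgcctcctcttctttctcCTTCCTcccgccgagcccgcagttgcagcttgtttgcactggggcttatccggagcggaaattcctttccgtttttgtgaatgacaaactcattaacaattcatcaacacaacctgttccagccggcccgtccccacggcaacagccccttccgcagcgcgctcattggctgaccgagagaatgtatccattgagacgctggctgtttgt
Etv5: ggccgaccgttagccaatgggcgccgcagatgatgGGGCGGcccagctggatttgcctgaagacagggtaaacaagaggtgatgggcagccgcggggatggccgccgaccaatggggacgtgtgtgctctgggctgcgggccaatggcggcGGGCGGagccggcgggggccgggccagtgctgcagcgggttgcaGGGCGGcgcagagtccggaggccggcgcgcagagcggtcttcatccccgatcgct
TGACG began 129 and 66 bases before the start of *Fos* and 106 bases before that of *Junb*, and 17.8% of the 32851 promoters of this length in the table held it. AGGAAG or its complement began 60 bases before the start in *Fos*, 117 in *Junb* and 210 in *Dusp6*, against 29.5% of all promoters. In *Fos* a single base separates TGACG from AGGAAG, and TATAAA follows 33 bases before the start (12.4% of all promoters). *Etv5* held GGGCGG at 215, 99 and 55 bases before the start, and *Fos* and *Jun* held it once each, at 74 and 89 bases (32.7% of all promoters). TGANTCA, the AP-1 site, was in none of these windows and in 6.75% of all promoters, and none of the 5 motifs was in the *Spry2* window. These matches describe letters only.

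The comparison of *ACVR1* R206H with *ACVR1* WT without H3.1K27M asked how the mutant receptor alone moved these genes. Of the 10 genes, 0 passed an adjusted p of 0.05 in edgeR's quasi-likelihood test, as did 0 of 15066 genes in all (0%), and 2 of the 10 (*Junb* and *Egr1*) and 534 of all genes had an unadjusted p under 0.05. DESeq2 called 26 genes and none of the 10. The 3 *ACVR1* R206H libraries lay above the 3 *ACVR1* WT libraries for *Junb* and *Egr1*, and this complete separation was seen for 9.61% of all genes. *Junb*, an AP-1 subunit, was at 10.7, 9.70 and 10.7 CPM with *ACVR1* WT and at 14.2, 16.3 and 21.3 CPM with *ACVR1* R206H (log2 fold change 0.75, SE 0.17, adjusted p = 0.94). *Egr1* was at 120.0, 86.5 and 61.4 CPM with *ACVR1* WT and at 127, 154 and 150 CPM with *ACVR1* R206H (log2 fold change 0.69, SE 0.24, adjusted p = 0.94). The highest *ACVR1* WT library of *Egr1* thus came close to the lowest *ACVR1* R206H library, whereas the groups of *Junb* were well apart.

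The feedback and ETS genes were tight with *ACVR1* R206H and lay inside the wide range of *ACVR1* WT. *Dusp6* was at 71.6, 51.8 and 68.3 CPM with *ACVR1* R206H, below *ACVR1* WT replicate 1 (104 CPM) and above replicates 2 and 3 (25.2 and 9.29 CPM). It differed by 0.48 on the log2 scale (SE 0.79, adjusted p = 0.94). *Spry4* (0.60, SE 0.64), *Etv5* (0.58, SE 0.57), *Etv4* (0.48, SE 0.46) and *Spry2* (0.27, SE 0.21) had log2 fold changes of the same order as their SE, with adjusted p = 0.94 for each in edgeR's test. *Fos* (0.24, SE 0.23), *Fosl1* (0.12, SE 0.22) and *Jun* (0.03, SE 0.10) also did not pass. The median log2 fold change over the 10 genes was 0.48, against -0.01 over all genes.

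Leaving out *ACVR1* WT replicate 1 changed this result, and leaving out replicate 3 moved it the other way. Without replicate 1, 7 of the 10 genes passed, all higher with *ACVR1* R206H, while 3485 of 15087 genes (23.1%) passed in either direction. *Dusp6* then had a log2 fold change of 1.91 (SE 0.35, adjusted p = 0.00823 in edgeR's test), *Spry4* of 1.71 (SE 0.27), *Etv5* of 1.503 (SE 0.24), *Etv4* of 1.16 (SE 0.21), *Egr1* of 0.97 (SE 0.14), *Junb* of 0.77 (SE 0.18) and *Spry2* of 0.55 (SE 0.08). *Fos*, *Fosl1* and *Jun* did not pass, at 0.04, 0.38 and 0.02. Without replicate 3 instead, the log2 fold change of *Dusp6* was -0.01, and 0 of the 10 and 0 of 15024 genes in all passed in edgeR's test. Of the genes that passed without replicate 1, the value of *Junb* was nearly the same with it (0.75) and that of *Dusp6* differed most.

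With H3.1K27M, *ACVR1* R206H was compared with *ACVR1* WT on 6 libraries that lay close together within each group. Here 4 of the 10 genes passed, all higher with *ACVR1* R206H: *Junb*, *Fos*, *Etv5* and *Etv4*. Over all 15672 genes, 20.3% passed and 11.4% passed as higher. *Junb* was at 11.0, 10.04 and 8.91 CPM with *ACVR1* WT and H3.1K27M and at 25.6, 22.7 and 19.5 CPM with *ACVR1* R206H and H3.1K27M, so that its lowest mutant library was well above its highest control library. Its fold change was 2.27 (log2 1.18, SE 0.11, adjusted p = 9.1e-06 in edgeR's test). *Fos* was at 59.5, 55.2 and 55.3 CPM against 96.6, 90.7 and 72.04 CPM, again without overlap, a fold change of 1.53 (log2 0.61, SE 0.09, adjusted p = 0.00031 in edgeR's test).

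*Etv5* and *Etv4* passed with small differences. *Etv5* was at 462, 457 and 476 CPM with *ACVR1* WT and H3.1K27M and at 504, 503 and 534 CPM with *ACVR1* R206H and H3.1K27M (log2 fold change 0.15, SE 0.04, adjusted p = 0.0165 in edgeR's test). *Etv4* was at 355, 335 and 354 CPM against 375, 381 and 389 CPM (log2 fold change 0.14, SE 0.04, adjusted p = 0.0224 in edgeR's test). For both genes the groups did not overlap, but the fold changes were 1.11 and 1.10. *Fos*, *Etv4* and *Etv5* no longer passed when all 12 samples shared one estimate of spread (adjusted p = 0.16, 0.91 and 0.92 in edgeR's test), and *Etv4* and *Etv5* did not pass without replicate 2 of *ACVR1* WT with H3.1K27M or without replicate 3 of *ACVR1* R206H with H3.1K27M (adjusted p between 0.0881 and 0.141 in edgeR's test). *Junb* passed under each of these settings.

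The feedback genes differed little between these 2 groups. *Dusp6* was at 222, 205 and 220.1 CPM with *ACVR1* WT and H3.1K27M and at 205, 186 and 200.4 CPM with *ACVR1* R206H and H3.1K27M, slightly lower in each mutant library than in any control library (log2 fold change -0.12, SE 0.05, adjusted p = 0.0812 in edgeR's test). *Dusp6* passed with no filter on low counts (adjusted p = 0.0206 in edgeR's test). *Spry4* (0.05, SE 0.04) and *Spry2* (-0.02, SE 0.05) overlapped between the groups. *Egr1* was at 52.4, 41.9 and 45.8 CPM against 69.8, 62.1 and 43.0 CPM, with mutant replicate 3 inside the control range (log2 fold change 0.32, SE 0.14, adjusted p = 0.13 in edgeR's test). Without that replicate its log2 fold change was 0.50 (adjusted p = 0.00296 in edgeR's test). On all 6 libraries with no filter on low counts *Egr1* also passed (adjusted p = 4.6e-06 in edgeR's test). Since the libraries were the same, the far smaller p came with the setting alone. The reason was not tested, so the passes of *Dusp6* and *Egr1* without a filter were not taken as calls. *Jun* (0.10, SE 0.05) and *Fosl1* (-0.02, SE 0.14) did not pass, although *Jun* did without replicate 1 of *ACVR1* WT with H3.1K27M (0.16, adjusted p = 0.0197 in edgeR's test). In all, 5 of the 10 genes separated the groups completely, against 36.8% of all genes, and the median log2 fold change was 0.12, against 0.00 over all genes.

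H3.1K27M was compared with its absence in *ACVR1* WT cells to ask what the histone mutation did without the mutant receptor. The immediate early genes *Fos* and *Egr1* were lower with H3.1K27M and the inhibitors *Spry2* and *Spry4* higher, so that 4 of the 10 genes passed, against 23% of 15385 genes in either direction, 12.6% as higher and 10.4% as lower. *Fos* fell from 84.7, 123 and 156 CPM to 59.5, 55.2 and 55.3 CPM (log2 fold change -1.09, SE 0.21, adjusted p = 0.0159 in edgeR's test). *Egr1* fell from 120.0, 86.5 and 61.4 CPM to 52.4, 41.9 and 45.8 CPM (log2 fold change -0.92, SE 0.24, adjusted p = 0.0378 in edgeR's test). For both genes every library with H3.1K27M lay below every library without it.

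*Spry2* rose from 262, 173 and 147 CPM to 357, 336 and 338 CPM (log2 fold change 0.84, SE 0.21, adjusted p = 0.0339 in edgeR's test). *Spry4* rose from 41.8, 13.02 and 5.96 CPM to 96.1, 94.4 and 104 CPM (log2 fold change 2.29, SE 0.65, adjusted p = 0.0486 in edgeR's test). *Dusp6* had as large a difference, from 104, 25.2 and 9.29 CPM to 222, 205 and 220.1 CPM, and did not pass (log2 fold change 2.23, SE 0.79, adjusted p = 0.088 in edgeR's test). The lowest library with H3.1K27M was still well above the highest library without it. *Etv4* (1.39, SE 0.45, adjusted p = 0.0698), *Etv5* (1.25, SE 0.56, adjusted p = 0.154) and *Fosl1* (0.75, SE 0.25, adjusted p = 0.0717) were also higher in every library with H3.1K27M and did not pass in edgeR's test. *Jun* (-0.08, SE 0.11) and *Junb* (-0.04, SE 0.13) overlapped. Complete separation held for 8 of the 10 genes, against 45.2% of all genes.

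The calls in *ACVR1* WT cells changed when single libraries were left out. Without replicate 1 of *ACVR1* WT, 8 of the 10 genes passed, against 52.6% of 15432 genes, with log2 fold changes of 3.67 for *Dusp6* (SE 0.32), 3.39 for *Spry4* (SE 0.24), 2.17 for *Etv5* (SE 0.23), 2.07 for *Etv4* (SE 0.20), 1.12 for *Spry2* (SE 0.08), 1.00 for *Fosl1* (SE 0.20), -0.65 for *Egr1* (SE 0.15) and -1.29 for *Fos* (SE 0.10). DESeq2 on all 6 libraries called 8 of the 10 and 4522 of 15385 genes, and edgeR on all 12 samples in one fit called 8 of the 10 and 6335 of 15445 genes. *Etv4* passed with no filter on low counts (adjusted p = 0.0402 in edgeR's test), a change that came with the setting alone and was not taken as a call. Without *ACVR1* WT replicate 2, or without any single replicate of *ACVR1* WT with H3.1K27M, 0 of the 10 genes passed in edgeR's test, although 1037 to 1445 genes did. *Spry2* also did not pass without *ACVR1* WT replicate 3 (adjusted p = 0.0519 in edgeR's test). The log2 fold changes of *Fos*, *Egr1*, *Spry2* and *Spry4* when each of these 4 libraries was left out stayed between -1.12 and -1.06, -1.01 and -0.85, 0.76 and 0.85, and 2.06 and 2.32, in this order.

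In *ACVR1* R206H cells, where the libraries without H3.1K27M lay close together, 9 of the 10 genes passed between presence and absence of H3.1K27M. Of these, 7 were higher and 2 lower with H3.1K27M, against 29.1% and 27.4% of 15482 genes (56.5% in either direction). *Spry4* rose from 33.1, 26.4 and 32.3 CPM to 102, 100 and 102 CPM (log2 fold change 1.74, SE 0.07, adjusted p = 3.9e-09 in edgeR's test). *Dusp6* rose from 71.6, 51.8 and 68.3 CPM to 205, 186 and 200.4 CPM (log2 fold change 1.64, SE 0.09, adjusted p = 4.3e-08 in edgeR's test). These were the 2 largest differences among the 10 genes, each with a fold change above 3, and in neither did the groups come near each other.

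The ETS factors rose by less. *Etv4* went from 192, 161 and 202 CPM to 375, 381 and 389 CPM (log2 fold change 1.05, SE 0.07, adjusted p = 1.4e-07 in edgeR's test), and *Etv5* from 315, 256 and 306 CPM to 504, 503 and 534 CPM (log2 fold change 0.82, SE 0.07, adjusted p = 9.7e-07 in edgeR's test). *Spry2* went from 231, 220.2 and 245 CPM to 358, 322 and 334 CPM (log2 fold change 0.55, SE 0.05, adjusted p = 2.7e-06 in edgeR's test). The groups of these 3 genes did not overlap. *Fosl1*, which encodes the AP-1 subunit FRA1, rose from 3.60, 3.46 and 3.73 CPM to 5.22, 5.27 and 5.91 CPM (log2 fold change 0.62, SE 0.13, adjusted p = 0.0014 in edgeR's test), on only 67 to 158 counts per library.

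*Egr1* and *Fos* went down in the same cells. *Egr1* fell from 127, 154 and 150 CPM to 69.8, 62.1 and 43.0 CPM (log2 fold change -1.30, SE 0.13, adjusted p = 6.3e-06 in edgeR's test). *Fos* fell from 119, 166 and 141 CPM to 96.6, 90.7 and 72.04 CPM (log2 fold change -0.71, SE 0.12, adjusted p = 0.00026 in edgeR's test). *Junb* passed although its groups overlapped: it went from 14.2, 16.3 and 21.3 CPM to 25.6, 22.7 and 19.5 CPM (log2 fold change 0.40, SE 0.13, adjusted p = 0.0245 in edgeR's test), and it did not pass without replicate 1 or 2 of *ACVR1* R206H, without replicate 1 or 2 of *ACVR1* R206H with H3.1K27M, or with all 12 samples in one fit (adjusted p between 0.0587 and 0.11 in edgeR's test). *Jun* was at 98.6, 99.4 and 103 CPM against 98.9, 100.4 and 96.7 CPM (log2 fold change -0.01, SE 0.04), and over all 12 libraries it ranged only from 87.3 to 113 CPM. In the fit of all 12 samples *Dusp6* and *Etv5* also no longer passed (adjusted p = 0.0504 and 0.161 in edgeR's test). Complete separation held for 8 of the 10 genes, against 63.1% of all genes.

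**Figure D2:**
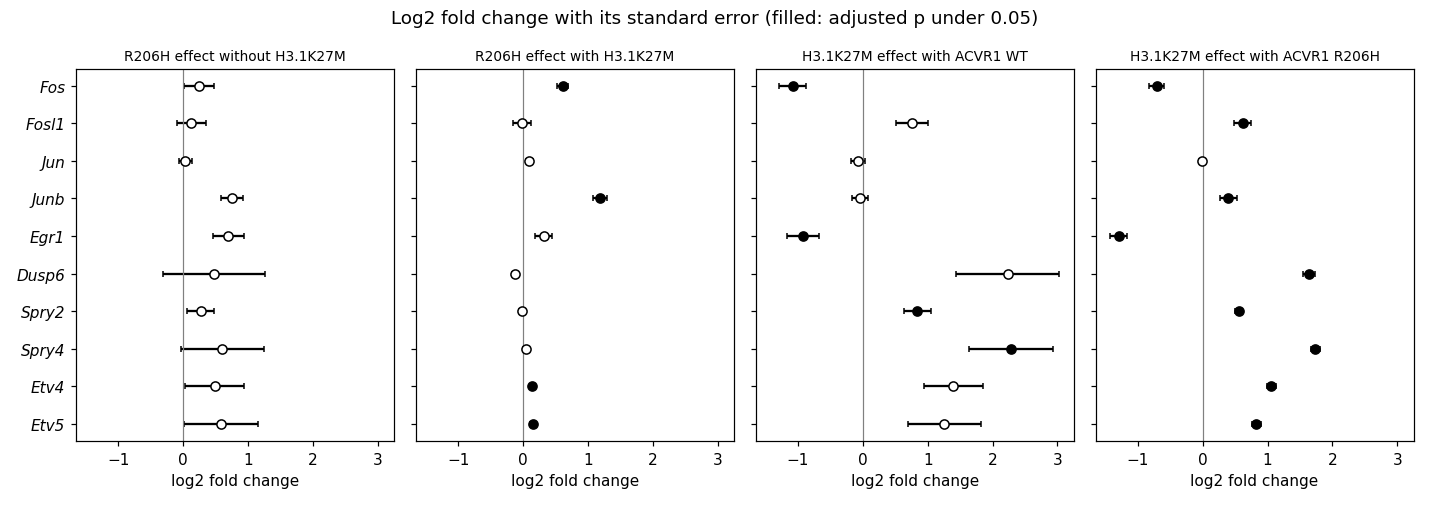
Log2 fold change (x axis) of each gene (y axis) in the 4 comparisons, with its SE as the error bar, filled where the adjusted p of edgeR's test was under 0.05. *Dusp6* and *Spry4* have similar or larger values with *ACVR1* WT (2.23 and 2.29) than with *ACVR1* R206H (1.64 and 1.74) but far wider errors, and *Junb* stands furthest to the right in both panels of the R206H effect.

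The 4 comparisons share libraries in pairs, so they are set side by side only by their own values. The test of whether the effect of *ACVR1* R206H differed with and without H3.1K27M, an interaction fitted on all 12 samples, called 0 of the 10 genes and 11 of 15445 genes (0.0712%). An unadjusted p under 0.05 was reached by 0 of the 10 genes and by 1183 of all genes, and DESeq2 called 0 of the 10. *Junb* had an interaction of 0.44 on the log2 scale (SE 0.22, adjusted p = 0.675) and *Fos* of 0.38 (SE 0.28, adjusted p = 0.747), and *Dusp6* of -0.60 (SE 0.82, adjusted p = 0.831) in edgeR's test. The larger R206H difference of *Junb* and *Fos* with H3.1K27M than without it is thus not shown to be a difference between the 2 settings.

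Without *ACVR1* WT replicate 1 the interaction called 6 of the 10 genes and 4112 of 15459 genes (26.6%). It was negative for *Dusp6* (-2.03, SE 0.32), *Spry4* (-1.65, SE 0.24), *Etv5* (-1.34, SE 0.23), *Etv4* (-1.01, SE 0.21) and *Spry2* (-0.56, SE 0.10) and positive for *Fos* (0.59, SE 0.19), with adjusted p between 0.000396 and 0.0327 in edgeR's test. Without that replicate these 5 feedback and ETS genes were higher by 0.55 to 1.91 on the log2 scale with *ACVR1* R206H alone than with *ACVR1* WT alone, whereas with H3.1K27M their differences lay between -0.12 and 0.15. *Junb* (0.42, SE 0.22) did not pass.

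**Figure D3:**
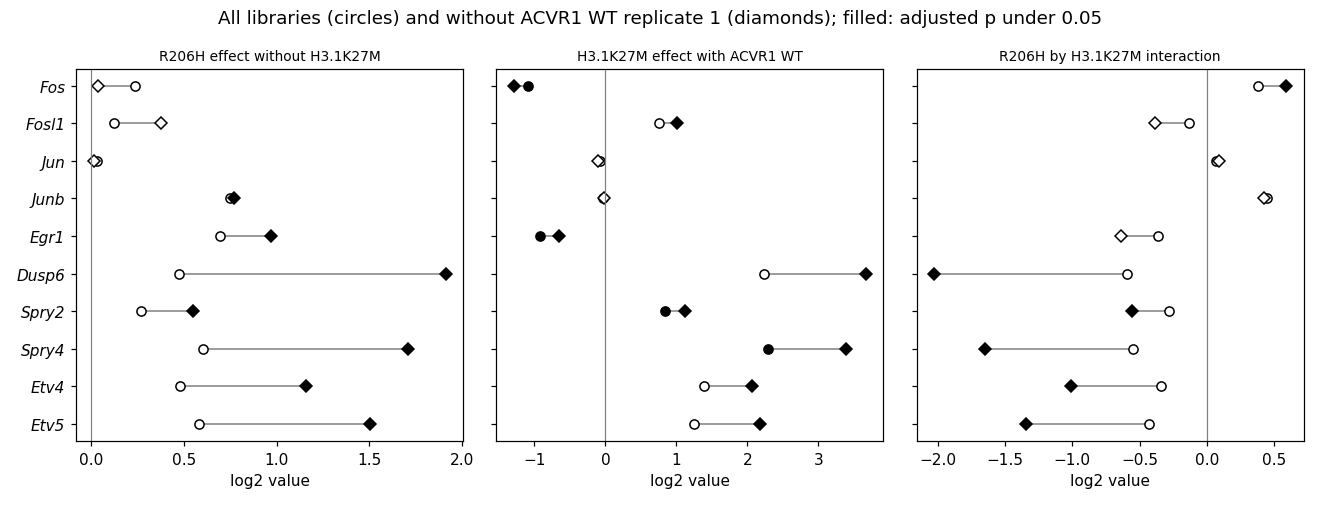
Log2 value (x axis) of each gene with all libraries (circles) and without *ACVR1* WT replicate 1 (diamonds) for the R206H effect without H3.1K27M, the H3.1K27M effect with *ACVR1* WT, and the interaction, filled where the adjusted p of edgeR's test was under 0.05. The lines join the 2 values of a gene. *Dusp6*, *Spry4*, *Etv4* and *Etv5* move most (for *Dusp6* from 0.48 to 1.91 in the first panel), and *Jun* and *Junb* hardly move.

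Other genes of the pathway were taken from lists and are given by counts. Of 25 tested other immediate early genes, 10 were higher and 3 lower with *ACVR1* R206H among the groups with H3.1K27M, with a median log2 fold change of 0.26 (52% called, against 20.3% of all genes). *Klf6* (0.43), *Ier3* (0.67) and *Atf3* (1.09) led those that rose, and *Myc* (-0.49), *Btg2* (-0.33) and *Klf10* (-0.26) those that fell. With H3.1K27M in *ACVR1* R206H cells, 11 were higher and 7 lower and the median was 0.04 (72% called, against 56.5% of all genes). The zinc finger gene *Klf6* (1.15), *Ier3* (2.97) and the kinase gene *Plk2* (1.03) rose, while *Fosb* (-1.53), a paralog of *Fos*, *Btg2* (-0.94) and *Ier5* (-0.88) fell. With H3.1K27M in *ACVR1* WT cells 5 were higher, led by *Klf6* (0.91), *Ier3* (2.89) and *Ccn2* (3.06), and 3 lower: *Fosb* (-1.63), *Ier5* (-0.66) and *Zfp36* (-0.58), or 32% against 23% of all genes.

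Of 20 tested other ERK output and feedback genes, 12 were higher and 7 lower with H3.1K27M in *ACVR1* R206H cells (95% called, against 56.5% of all genes). *Spry1*, a Sprouty gene outside the 10, rose from a range of 36.6 to 49.1 CPM to a range of 212 to 223 CPM (log2 fold change 2.31, adjusted p = 1.8e-09 in edgeR's test), and *Spry3* matched no gene name and was not analysed here. The ephrin receptor gene *Epha2* (2.43) and the EGF receptor ligand gene *Hbegf* (1.03) also rose, while *Epha4* (-1.01), the FGF inhibitor gene *Il17rd* (-1.12) and the phosphatase gene *Dusp5* (-0.85) fell, so that feedback inhibitors were found in either direction. In *ACVR1* WT cells 5 were higher with H3.1K27M, led by *Lif* (2.42), *Hbegf* (1.01) and *Epha2* (2.63), and *Epha4* (-1.21) and *Il17rd* (-0.97) were lower (35% against 23% of all genes). Between the groups with H3.1K27M, 6 were higher with *ACVR1* R206H, led by *Dusp1* (0.59), *Spred3* (0.27) and *Hbegf* (0.19), and *Ccnd1* (-0.27) and *Il17rd* (-0.26) were lower (40% against 20.3% of all genes).

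The 34 genes from the receptors to ERK and its target factors moved in either direction. With H3.1K27M in *ACVR1* R206H cells 11 were higher and 14 lower (73.5% against 56.5% of all genes), and the FGF receptor genes were split: *Fgfr1* (0.84) and *Fgfr2* (1.28) rose and *Fgfr3* (-1.29) fell. *Elk3* (0.67) rose and *Ets1* (-0.88) and *Gab1* (-0.61) fell. In *ACVR1* WT cells 4 rose, among them *Hras* (0.76), *Elk3* (0.72) and *Fgfr1* (0.71), and 6 fell, among them *Fgfr3* (-1.02), *Gab1* (-0.52) and *Mapk3* (-0.44), which encodes ERK1, or 29.4% of the list, near the 23% of all genes. Between the groups with H3.1K27M, 7 were higher with *ACVR1* R206H, led by *Rps6ka2* (0.58), *Fgfr2* (0.45) and *Fgfr1* (0.36), and 6 lower, led by *Egfr* (-0.73), the receptor gene for the EGF in the medium, *Fgfr3* (-0.36) and *Pdgfra* (-0.42), or 38.2% against 20.3% of all genes. *Egfr* was at 447 to 500.2 CPM with *ACVR1* WT and H3.1K27M and at 263 to 323 CPM with *ACVR1* R206H and H3.1K27M.

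In the comparison of *ACVR1* R206H with *ACVR1* WT without H3.1K27M, 0 genes of these 3 lists passed, as did 0 of all genes, and without *ACVR1* WT replicate 1, 8 of 25, 15 of 20 and 9 of 34 did (32%, 75% and 26.5%, against 23.1% of all genes). Without that replicate the H3.1K27M effect in *ACVR1* WT cells called 16 of 25, 14 of 19 and 22 of 34 (64%, 73.7% and 64.7%, against 52.6% of all genes). The interaction called 0 genes of these 3 lists, and without that replicate 8 of 25, 14 of 20 and 9 of 34 (32%, 70% and 26.5%, against 26.6% of all genes). Heat shock and stress genes, which respond to handling as immediate early genes do, were given the same test: 0 of 10 passed for R206H without H3.1K27M (2 of 10 without that replicate), 1 of 11 with it (*Gadd45b*, 0.62), 1 of 10 for H3.1K27M with *ACVR1* WT (*Gadd45a*, 0.61; 4 of 11 without that replicate) and 5 of 11 for H3.1K27M with *ACVR1* R206H, all of these higher. These shares were 9.09%, 10% and 45.5% in the last 3 comparisons with all libraries, against 20.3%, 23% and 56.5% of all genes, and 20% and 36.4% without that replicate, against 23.1% and 52.6%. The interaction called 0 of 11, and 2 of 11 without that replicate. Their summed level lay between 2232 and 2566 CPM in all 12 libraries. Most of it came from *Hspa8* (1163 to 1348 CPM), *Hspa5* (468 to 566 CPM) and *Hsp90aa1* (320 to 478 CPM). *Hspa1a* (0.142 to 0.636 CPM) and *Hspa1b* (0.532 to 1.47 CPM) added almost nothing, so the sum does not show whether the scarcer genes were steady.

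**Figure D4:**
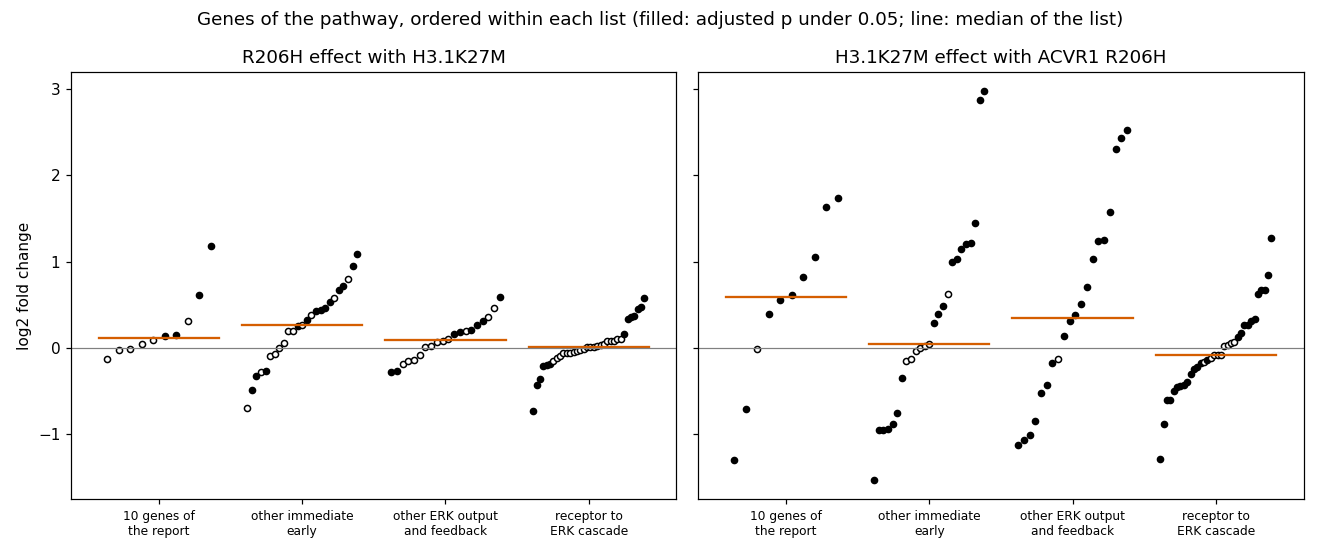
Log2 fold change (y axis) of each tested gene in 4 lists of pathway genes (x axis), ordered by value within a list, for the R206H effect with H3.1K27M and the H3.1K27M effect with *ACVR1* R206H, filled where the adjusted p of edgeR's test was under 0.05, with the list's median as a line. The 10 genes have medians of 0.12 and 0.59, and each list holds filled points on either side of 0 in the right panel.

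Among the 10 genes, *Etv4* and *Etv5*, *Fosl1* and *Spry2*, and *Dusp6* and *Spry4* were the closest pairs over the 12 libraries, with root-mean-square differences of centred log2 CPM of 0.14, 0.15 and 0.17. *Fos* and *Dusp6* were the least alike at 1.85. Distances are small between genes that vary little. The SD of log2 CPM over the 12 libraries was 0.35 for *Fosl1* and 0.41 for *Spry2*, against 0.81 for *Etv4*, 0.84 for *Etv5*, 1.39 for *Dusp6* and 1.28 for *Spry4*. The distance between *Fosl1* and *Spry2* is therefore a weaker match than that between *Dusp6* and *Spry4*. Among 15435 other genes, those nearest to *Dusp6* were *Adam12* (0.16), *Chrm3* (0.18) and *Ccnd1* (0.22), and those nearest to *Spry4* were *Igfbp2* (0.13), *Chrm3* (0.17) and *Ankrd34c* (0.17). *Ccnd1*, which encodes cyclin D1, was at 512, 102 and 57.8 CPM in the *ACVR1* WT libraries, at 238 to 341 CPM with *ACVR1* R206H and at 688 to 917 CPM in the groups with H3.1K27M, the order and the spread seen for *Dusp6*. *Plk2* (0.09), *Ccdc141* (0.11) and *Slc2a9* (0.13) were nearest to *Etv4*, *Ccdc141* (0.12), *Ddias* (0.14) and *Psrc1* (0.15) to *Etv5*, and *Dennd2a* (0.06), *Rab31* (0.07) and *Hes6* (0.07) to *Spry2*.

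The immediate early genes had other neighbors. *Fhdc1* (0.18), *Aldoc* (0.19) and *Lypd1* (0.19) were nearest to *Fos*, *Neat1* (0.23), *Mir9-3hg* (0.24) and *Lgr5* (0.25) to *Egr1*, *Serpinb1a* (0.22), *Ecm1* (0.22) and *Hs3st3b1* (0.23) to *Junb*, and *Oxr1* (0.08), *Timm17a* (0.10) and *Vdac2* (0.10) to *Fosl1*. These distances describe 12 libraries that share their groups and were given no test. The distances of *Dusp6*, *Spry4*, *Etv4* and *Etv5* include the spread within the *ACVR1* WT group.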

How the data were processed

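RNA had been sequenced from 12 neurosphere samples, 3 in each of 4 groups taken from the labels. Per the methods and labels, paired-end reads were mapped to mm10 (GRCm38) with STAR 2.6.0b-1 in Galaxy by the authors, who used HTSeq-count on the Ensembl annotation (strand ignored, union mode, minimum alignment quality 10, reads matching several places or genes left out) and deposited raw counts per gene for each sample. The counts were used as deposited. Symbols and positions were found for 54409 of 54532 genes in GENCODE M21 (GRCm38) and promoters were read from RefSeq.

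Genes whose normalized count averaged 10 or more were tested with the quasi-likelihood method of edgeR 4.0.16 in R 4.3.3 after TMM normalization, on 6 samples per comparison or on all 12 for the interaction. P values were adjusted by the method of Benjamini and Hochberg over all genes tested, with a threshold of 0.05. Distances between genes used log2(CPM + 0.5). Totals of 19315020 to 26456257 counts were deposited per library. For *Fosl1*, with 54 to 169 counts per library, counting error also limits the precision. The smallest two-sided exact p of 3 against 3 is 0.1. All replicate pairs differed by more than sampling noise. The tests were first run on simulated counts.

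The alternatives were DESeq2 1.42.0, median-of-ratios size factors in edgeR, no filter, a minimum of 10 counts per sample, the replicate number as a block, all 12 samples in one fit, and leaving out each library in turn. Counts over lists without *ACVR1* WT replicate 1 were added after seeing the data. The 10 genes and the lists were chosen with earlier results of these data known. Genes outside the 10 were named by a rule: from each list up to 3 per direction with the smallest adjusted p in a comparison, the 3 genes nearest to each called gene, and *Acvr1*, *Id1* to *Id4* and cell markers as checks.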

Additional observations from a re-analysis of the deposited data

How the results depend on the processing

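Directions of all called values of the 10 genes were kept under the alternatives run. The number of genes called was less stable. For *ACVR1* R206H against *ACVR1* WT without H3.1K27M, where 0 genes passed, DESeq2 called 26 and the fit of all 12 samples 11, and leaving out 1 library gave 0 to 3485 genes and 0 to 7 of the 10, the highest without *ACVR1* WT replicate 1. With H3.1K27M, the fit of all 12 samples called 440 genes and 1 of the 10 (3185 and 4 in the 6 samples), and leaving out 1 library gave 1915 to 2966 genes and 2 to 5 of the 10. For H3.1K27M with *ACVR1* WT (3533 genes and 4 of the 10), DESeq2 called 4522 genes and 8 of the 10, the fit of all 12 samples 6335 genes and 8 of the 10, and leaving out 1 library gave 1037 to 8115 genes and 0 to 8 of the 10. For H3.1K27M with *ACVR1* R206H (8745 genes and 9 of the 10), the alternatives called 5963 to 9449 genes and 6 to 9 of the 10, and leaving out 1 library gave 7589 to 8350 genes and 8 or 9 of the 10. For the interaction (11 genes, 0 of the 10), DESeq2 called 97 genes and no filter 18, and leaving out 1 library gave 3 to 4112 genes and 0 to 6 of the 10. The causes of these shifts were not tested.

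The replicate block called 2023 genes for H3.1K27M with *ACVR1* WT, where *Spry4* no longer passed (adjusted p = 0.0557 in edgeR's test), and 2 for the interaction. For R206H with H3.1K27M it added *Egr1* and *Dusp6* (adjusted p = 0.0469 and 0.0284), and it changed no other call of the 10 genes. Deviations of same-numbered libraries from their group means correlated between -0.14 and 0.42, not above 0.1 in every pair, so the numbers were not taken to pair the samples.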
